A study of Mus musculus with 3 samples.

Results

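The ureteric bud is the epithelial tube that branches through the embryonic kidney and becomes the collecting duct. Peaks of Notch2 occupancy were described here around 8 genes known for their roles in it: Ret, Etv4, Etv5, Wnt11, Wnt9b, Wnt7b, Gata3 and Sox9. A peak was included when any base of it lay within 100 kb of the stated mm9 position of a gene, which gave 44 of the 28651 peaks of replicate 1 and 15 of the 12585 peaks of replicate 2. The gene positions were given as a span with ends to the nearest 10 kb for 7 genes and as a single point, to the nearest 1 kb, for Sox9, and were not checked against an mm9 annotation. Start sites were therefore not located, and "lower" and "higher" below refer to genome coordinates and not to the direction of transcription.

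The measurement was chromatin immunoprecipitation with an anti-Notch2 antibody followed by sequencing, in crosslinked whole kidneys of mouse embryos at E16.5. The labels name 3 samples, 2 immunoprecipitations (replicates 1 and 2) and 1 input, and give no genotype, treatment or strain. The input was not analysed here. Each immunoprecipitation had a list of called peaks with chromosome, start and end only, so the read depth, height and p-value behind each peak are unknown, and nothing in the labels tells whether the 2 samples were separate litters. Whole kidney contains many cell types besides the ureteric lineage, and a peak in these lists cannot be assigned to any of them.

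In the ureteric tip, the receptor tyrosine kinase Ret responds to the ligand Gdnf from the surrounding mesenchyme and drives branching, and the ETS transcription factors Etv4 and Etv5 act downstream of it. Wnt11 is a ligand made at the tips, whereas Wnt9b and Wnt7b are ligands of the ureteric trunk and its derivatives that act on the neighbouring nephron progenitors and stroma. Notch2 is a receptor of which a cleaved intracellular fragment enters the nucleus and joins RBPJ, a protein that binds DNA, and Notch signalling takes part in the choice between principal and intercalated cells of the collecting duct.

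Promoter sequences of the members are shown first because RBPJ has a known core sequence, TGGGAA, that can be looked for in them. RefSeq promoters of build GRCm38.p6 (250 bases before and 50 after a start) were matched for 4 of the 8 genes, namely Gata3, Etv5, Wnt11 and Wnt9b, with 6 starts in all. Those of Ret, Etv4, Wnt7b and Sox9 were not matched. TGGGAA or its reverse complement TTCCCA occurred in 1 of the 6, the second start of Etv5, and in 25.6% of all 32851 promoters of the table. The longer form CGTGGGAA, which contains the core, occurred on either strand in 0 of the 6 and in 0.734% of all promoters. Printed below are the 250 bases before both starts of Etv5 and before the first start of Wnt11, the gene with the most peaks. Etv5 was the only gene with a shared peak inside its span as stated. The shared Wnt7b peak lay outside its span by less than the rounding of the span. Capitals mark TGGGAA, and sequences without it are in lower case throughout.
Etv5, second start, chr16:22438369-22438618 (GRCm38.p6, minus strand): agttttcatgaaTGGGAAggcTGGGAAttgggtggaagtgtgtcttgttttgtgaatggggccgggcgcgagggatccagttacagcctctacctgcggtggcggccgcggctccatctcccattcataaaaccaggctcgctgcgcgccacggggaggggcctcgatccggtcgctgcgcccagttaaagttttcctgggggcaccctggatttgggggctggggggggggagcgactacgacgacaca
Etv5, first start, chr16:22439571-22439820 (GRCm38.p6, minus strand): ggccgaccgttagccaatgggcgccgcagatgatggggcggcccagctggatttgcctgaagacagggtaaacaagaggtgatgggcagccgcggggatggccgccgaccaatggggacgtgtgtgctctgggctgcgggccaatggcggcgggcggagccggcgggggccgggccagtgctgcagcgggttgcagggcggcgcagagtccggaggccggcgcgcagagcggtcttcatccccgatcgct
Wnt11, first start, chr7:98834862-98835111 (GRCm38.p6, plus strand): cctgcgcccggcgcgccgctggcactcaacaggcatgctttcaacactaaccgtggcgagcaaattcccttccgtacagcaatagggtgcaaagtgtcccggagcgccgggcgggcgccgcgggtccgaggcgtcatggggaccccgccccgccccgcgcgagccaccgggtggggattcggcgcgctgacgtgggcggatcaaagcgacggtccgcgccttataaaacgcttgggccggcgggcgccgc
The matches of Etv5 began 238 and 229 bases before its second start. These positions belong to another build than the peaks and were not set against them. A match describes the letters of a window and not a bound site, and the absence of a match says only that these letters are not in that window.

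All 8 windows held at least 1 peak in both replicates, and every window held more in replicate 1 than in replicate 2, the shorter list. Of 10890 autosomal tiles (equal stretches) of 220 kb, 3020 held 0 peaks of replicate 1 and 5597 held 0 of replicate 2. The share of tiles with a peak in both lists, or with more in replicate 1, was not computed. The Wnt11 window had the most in both lists, 13 in replicate 1 and 5 in replicate 2. Wnt7b followed in replicate 1 with 9 peaks but had 1 in replicate 2. Gata3 had 5 and 3 peaks, Etv5 had 4 and 2, Etv4 and Sox9 each had 4 and 1, Wnt9b had 3 and 1, and Ret had 2 and 1. Of autosomal tiles as long as the window, 5.81% held as many peaks of replicate 1 or more for Wnt7b, 21.5% for Gata3 and 34.1% for Etv5. The shares were 28.4% for Etv4, 25.3% for Sox9 and 39.1% for Wnt9b. In replicate 2 they were 50.4, 16.3, 31.0, 48.6, 45.8 and 48.6%, in the same order of genes. Those of Ret and Wnt11 are given below. The ratio of the totals was 2.93 (95% exact interval 1.60 to 5.67), and that of the whole lists was 2.28, inside this interval. Intervals here and below cover counting error only. They treat each peak as independent, although some sites are counted in both lists and some peaks lie close together. With 1 list per replicate no difference between replicates or genes was tested.

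**Figure D1:**
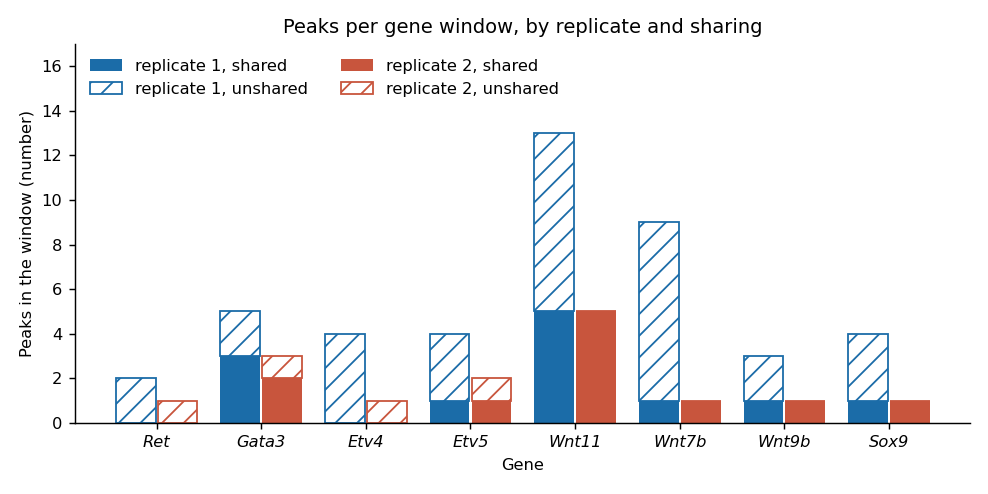
Number of peaks (vertical axis) in the window of each gene (horizontal axis), with replicate 1 in blue and replicate 2 in red. Filled parts are peaks that overlap a peak of the other list by at least 1 bp, hatched parts those that do not; Wnt11 holds 5 shared peaks in both replicates, and Ret and Etv4 hold 0.

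Peaks were called shared when they overlapped a peak of the other replicate by at least 1 bp. Of the 44 peaks of replicate 1, 12 were shared, or 27.3% (95% Wilson interval 16.3 to 41.8%), beside 33.0% of all peaks of that list. Of the 15 peaks of replicate 2, 11 were shared, or 73.3% (48.0 to 89.1%), beside 75.5% of all peaks. Both shares were thus near those of the whole lists. The shared peaks lay in 6 windows, 5 of them at Wnt11, 3 at Gata3 and 1 each at Etv5, Wnt7b, Wnt9b and Sox9, as counted in replicate 1. Ret and Etv4 had none. Among autosomal tiles as long as each window, 39.1 to 45.7% held at least 1 shared peak of replicate 1. Without the Wnt11 window, the shares were 22.6% of 31 peaks in replicate 1 and 60.0% of 10 peaks in replicate 2.

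The windows together covered 1.84 Mb and held 23.9 peaks per Mb in replicate 1, against 11.8 over the autosomes, and 8.15 per Mb in replicate 2, against 5.18. Without Wnt11 the densities were 19.1 and 6.17 per Mb. Etv4, Wnt9b and Sox9 lie on chromosome 11, and their windows held 17.2 and 4.69 peaks per Mb, beside 14.3 and 4.63 over that chromosome. Autosomal averages and tiles include long stretches without genes, so the densities and the shares of tiles are descriptions and not tests of an excess. In replicate 1 there were 25 peaks per Mb inside the spans, 25 within 10 kb of them, 23.4 from 10 to 50 kb and 23.8 from 50 to 100 kb. This evenness rested on Wnt11, all of whose peaks lay more than 10 kb from its span. Without that window, a comparison chosen after the values were seen, the zones held 27.3, 28.6, 16.1 and 17.1 peaks per Mb, from 6, 4, 9 and 12 peaks. Of the 6 peaks inside the spans, 3 were at Etv5, and the 4 within 10 kb were all at Etv5 or Wnt7b. The spans are rounded to 10 kb, so peaks close to an end cannot be placed firmly inside or outside. In replicate 2 the zones held 8.33, 6.25, 14.1 and 3.75 peaks per Mb, from 2, 1, 9 and 3 peaks, and without Wnt11 9.09, 7.14, 10.7 and 1.43.

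**Figure D2:**
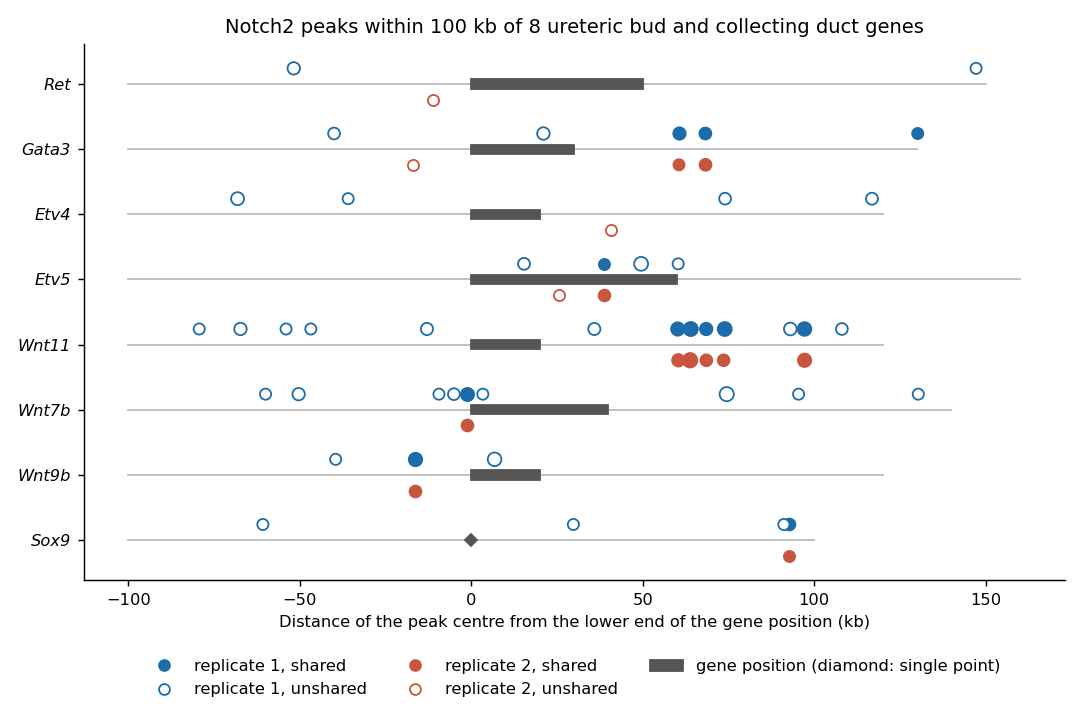
Position of each peak centre in kb from the lower end of the gene's position (horizontal axis) for the 8 genes (vertical axis), replicate 1 in blue above and replicate 2 in red below the line. Filled circles are shared peaks, open circles unshared ones, larger circles wider peaks, and grey bars the gene positions; the 5 shared peaks of Wnt11 all lie on its higher side.

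Ret, the receptor of the branching signal, had 2 peaks in replicate 1 and 1 in replicate 2, and none was shared, as in 55.1% of autosomal tiles of this length. Those of replicate 1 lay at chr6:118047878-118048639, 51.4 kb below the span, and at chr6:118246963-118247462, 97.0 kb above it. They measured 762 and 500 bp and stood at places 14906 and 20520 of the 28651 in list order. The replicate 2 peak measured 500 bp and lay at chr6:118088498-118088997, 11.003 kb below the span, at place 11766 of 12585. The lists differ in length, so places in replicate 1 and replicate 2, here and below, are not on the same scale. No peak of either list lay inside the span. Among autosomal tiles of the same length, 57.8% held 2 or more peaks of replicate 1 and 52.1% held 1 or more of replicate 2, so the counts at Ret were near the middle of the tiles.

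Etv4, an ETS factor induced by Ret signalling, had no shared peak either, as in 58.5% of tiles of its length (replicate 1). Its 4 peaks in replicate 1 measured 500 to 913 bp and lay 35.6 to 96.5 kb from the span, with 2 on either side. The widest, at chr11:101561419-101562331, stood at place 13979. The single peak of replicate 2, chr11:101670629-101671128, lay 20.6 kb above the span and stood at place 12056, in the last part of the list. The span itself held no peak in either replicate.

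Etv5, the close relative of Etv4, was the gene with most peaks inside its span, which is also the longest of the 8. All peaks of its window lay inside the 60 kb span or, in 1 case, 0.099 kb above its higher end, a distance below the rounding of the span. The shared peak was chr16:22418362-22418861 in replicate 1 and chr16:22418378-22419002 in replicate 2, with widths of 500 and 625 bp and places 9532 and 6002. Those places are 33.3% and 47.7% down their lists. Replicate 1 had further peaks in the span at chr16:22395074-22395726, at place 4276 the earliest of this window, and at chr16:22428944-22430145, at 1202 bp the widest. The peak beyond the higher end, chr16:22440099-22440598, measured 500 bp and stood at place 24756. Replicate 2 had an unshared peak of 500 bp at chr16:22405415-22405914, which stood at place 11575. The 200 kb outside the span thus held 1 peak in replicate 1 and 0 in replicate 2.

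Wnt11, the ligand of the ureteric tip, had the most peaks and the most shared peaks, and they included the earliest of all 8 windows in both lists. All 5 shared peaks lay above the span, in a stretch of 38.04 kb from 106039711 to 106077753 on chromosome 7 (replicate 1), and all 5 peaks of replicate 2 were among them. In the RefSeq gene order of GRCm38.p6, Wnt11 lies between Thap12 on the lower and Uvrag on the higher side, so that the stretch lies on the side of Uvrag. Whether these peaks fall in that gene was not determined, as no mm9 annotation was used.

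In order of position, the first shared peak was chr7:106039711-106040736 in replicate 1 and chr7:106040009-106040805 in replicate 2, 39.7 and 40.0 kb above the span. It measured 1026 and 797 bp and stood at places 804 and 1528. The next, from 106043379 to 106044660 in replicate 1, measured 1282 and 1404 bp and stood at places 5313 and 1104, the latter being the earliest place of any peak of replicate 2 in the 8 windows. These first 2 sites were thus wide in both replicates.

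The middle shared peak, from 106048124 to 106048908, was narrower and later in both lists, with 785 and 630 bp and places 9192 and 3546. The fourth, from 106053297 to 106054543, had widths of 1247 and 630 bp, with places 1573 and 1741, or 5.49% and 13.8% down their lists. The last, from 106076616 to 106077753, measured 1138 and 1036 bp and had the earliest place of replicate 1, 731, and place 1642 in replicate 2. The first 4 were 2.64, 3.46 and 4.39 kb apart in replicate 1, and the last stood 22.1 kb beyond them. In replicate 2 these gaps were 2.32, 3.72, 4.41 and 22.8 kb.

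The other 8 peaks of replicate 1 at Wnt11 had no counterpart. They measured 500 to 843 bp, 5 of them lay below the span and 3 above it, and their places ranged from 4779 to 25229. Among 10890 autosomal tiles of 220 kb, 1.16% held 13 or more peaks of replicate 1 and 5.30% held 5 or more peaks of replicate 2, and 3.12% held 5 or more shared peaks of replicate 1. Wnt11 had the most peaks of the 8 windows, so these shares describe the highest of a set and are not tests. No peak lay inside the Wnt11 span, and the nearest was 12.6 kb from it in replicate 1 and 40.0 kb in replicate 2.

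**Figure D3:**
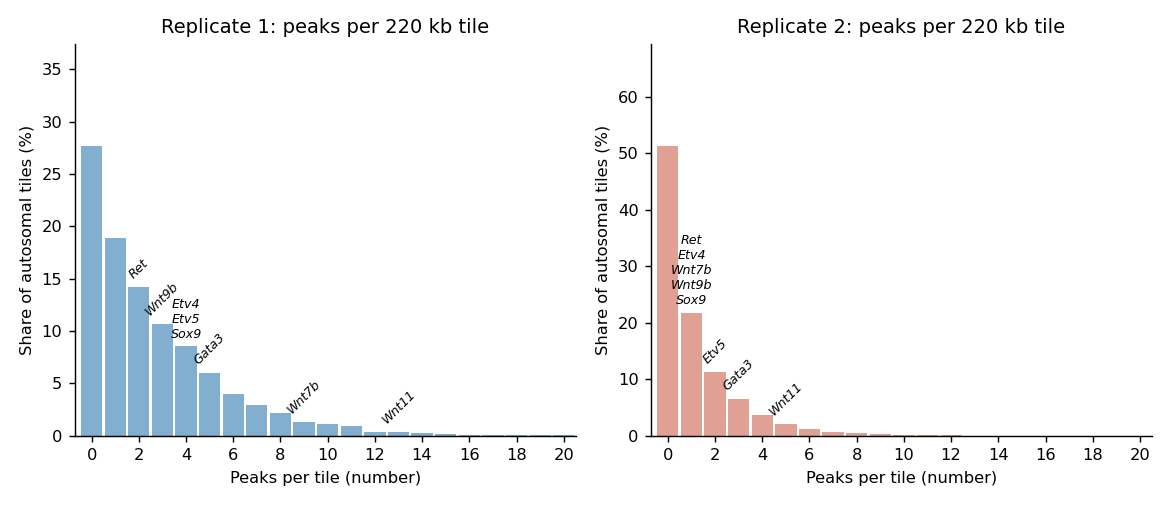
Share of autosomal tiles of 220 kb in percent (vertical axis) by the number of peaks they hold (horizontal axis, to 20), for replicate 1 on the left and replicate 2 on the right. Each gene's name stands over the count of its own window (200 to 260 kb); Wnt11 stands at 13 and 5 peaks, and the other genes at 2 to 9 in replicate 1 and 1 to 3 in replicate 2.

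Wnt9b, the trunk ligand that induces nephron progenitors, had 1 shared peak, below its span. It was chr11:103572959-103574013 in replicate 1 and chr11:103573279-103573915 in replicate 2, 15.99 and 16.09 kb from the span. Its width was 1055 and 637 bp. Its place was early in replicate 1 (3246, or 11.3% down the list) and late in replicate 2 (8832, or 70.2%). A wider peak of replicate 1 inside the span, chr11:103596260-103597376, measured 1117 bp at place 4287 and had no counterpart. Wnt9b lies between Gosr2 and another Wnt gene, Wnt3, which is on its higher side, and its window held no peak above the span in either replicate.

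Wnt7b, the collecting duct ligand needed for growth of the medulla, had 9 peaks in replicate 1 against 1 in replicate 2. The ratio of 9 has a 95% exact interval of 1.25 to 394, which includes the ratio of 2.28 of the whole lists and those of the other 7 genes. The shared peak lay at the lower edge of the span, at chr15:85368169-85369143 in replicate 1 and chr15:85368390-85369041 in replicate 2, 0.857 and 0.959 kb outside it. These distances are below the rounding of the span. Its widths were 975 and 652 bp and its places 2727 and 8791. It belonged to a group of 4 peaks of replicate 1 with edges within 10 kb of each other, over 13.3 kb. The widest peak of the window, and of all 44 in replicate 1, was chr15:85443846-85445144 with 1299 bp at place 6395, and replicate 2 had no peak there. Of the 9 peaks of replicate 1, 5 were 500 bp wide, the narrowest width in these lists. That width was found in 38.6% of the 44 window peaks and 31.8% of all peaks of replicate 1.

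Gata3, a transcription factor of the nephric duct and its derivatives, had 3 shared peaks as counted in replicate 1, all on the higher side of its span. The first ran from 9840346 to 9841113 on chromosome 2 in replicate 1, 30.3 kb from the span, and was 768 bp wide there and 500 bp wide in replicate 2. The next, from 9847950 to 9848609, measured 660 and 656 bp. Their places were 13227 and 17127 in replicate 1 and 4470 and 8220 in replicate 2, so that both came later in each list than all 5 shared Wnt11 peaks. The remaining one, chr2:9909942-9910441, lay 99.9 kb from the span at the limit of the window, and its counterpart in replicate 2 began 100.02 kb away and was not counted there. Beyond it, at 101.5 kb, replicate 1 had a peak of 1404 bp that was also shared. Inside the span, replicate 1 had an unshared peak of 799 bp at chr2:9800661-9801459, at place 13412. In RefSeq order the next gene on this side is Taf3.

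Sox9, a transcription factor of the ureteric tip, had 1 shared peak, far from its stated position. It lay 92.4 kb above that point in replicate 1, from 112735393 to 112736021 on chromosome 11, and 92.5 kb above it in replicate 2, with widths of 629 and 500 bp and places 14076 and 7811. Those places are 49.1% and 62.1% down their lists. The other 3 peaks of replicate 1 were 500 bp wide and unshared, at 60.5 kb below and at 29.5 and 90.9 kb above the point. The nearest peak of either list was thus 29.5 kb away.

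Several peaks fell close to the 100 kb limit, which is a choice and not a boundary of any gene. The outermost peaks inside lay 99.9 kb from Gata3, 97.0 kb from Ret and 96.5 kb from Etv4, all in replicate 1. Just outside lay a shared site on the lower side of Wnt11, 101.1 kb away in both lists, with widths of 1016 and 798 bp. A replicate 2 peak lay 108.2 kb from Etv4 and was shared, so that the lack of a shared peak at Etv4 depended on the limit. For Ret, the next peaks outside were 192.4 kb away in replicate 1 and 460.6 kb away in replicate 2.

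The 12 shared pairs matched closely in position. Their centres lay a median of 94.8 bp apart, beside 81.0 bp over all 9469 shared peaks of replicate 1, and the overlap covered at least 84.8% of the narrower peak in every pair. Replicate 1 had the wider peak in 9 pairs and replicate 2 in 3, and replicate 1 was wider in 66.5% of pairs over the whole lists. Selection for overlap itself brings centres near.

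Shared peaks of the windows were wider and came earlier in the lists than unshared ones, as over the whole lists. The order of the lists is not described in the sources used here. Shared peaks of replicate 1 had a median width of 880 bp and a median place at 25.3% of the list, against 626.5 bp and 59.8% for the 32 unshared ones. Over the whole list these values were 768 bp and 23.5% against 630 bp and 61.8%. In replicate 2, all 4 unshared peaks (1 each at Ret, Gata3, Etv4 and Etv5) were 500 bp wide and stood in the last 10% of the list, at 90.1 to 95.8%. The 11 shared ones had a median width of 637 bp and places from 8.77 to 70.2%. Over the whole list of replicate 2, 71.8% of the 3081 unshared peaks were 500 bp wide and their median place was at 71.5%. Shared peaks of that whole list had a median width of 630 bp and a median place at 41.9%. Of the peaks of replicate 2 in the first 25% of its list, 4 lay in the windows, and all 4 were at Wnt11. In replicate 1 there were 10, of which 5 were at Wnt11. These were 26.7% of the 15 window peaks of replicate 2 and 22.7% of the 44 of replicate 1, near the 25% of each whole list.

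**Figure D4:**
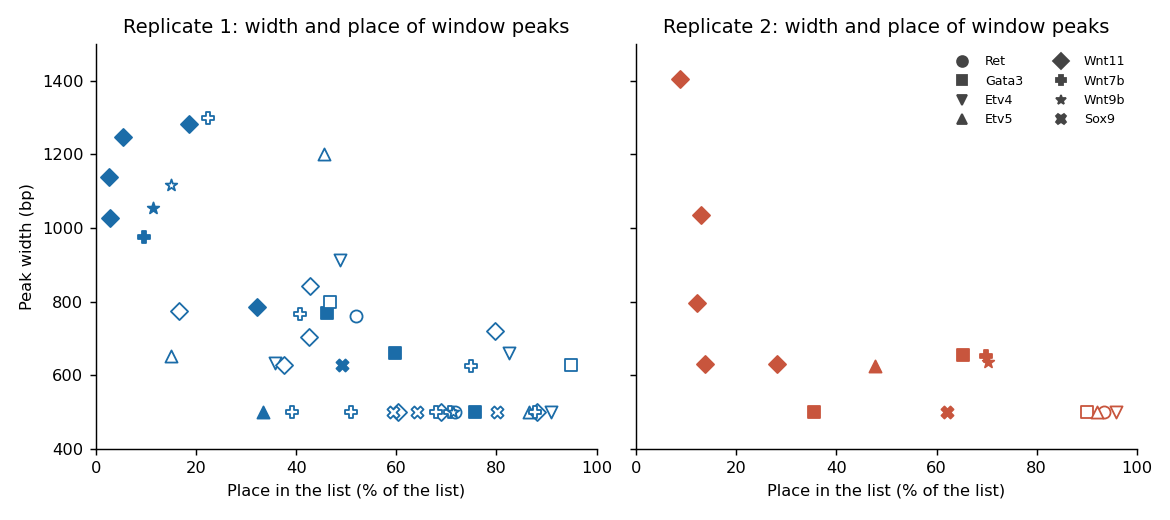
Width in bp (vertical axis) against place as a percentage of the list (horizontal axis) for the 44 window peaks of replicate 1 on the left and the 15 of replicate 2 on the right. Marker shapes are genes, filled markers shared peaks and open markers unshared ones; the filled Wnt11 diamonds stand at 2.55 to 32.1% in replicate 1 and at 8.77 to 28.2% in replicate 2.

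The 32 unshared peaks of replicate 1 lay 1.09 to 158 kb from the nearest replicate 2 peak, with a median of 33.0 kb, and 7 of them were within 10 kb. The 4 unshared peaks of replicate 2 lay 9.69 to 39.9 kb from the nearest replicate 1 peak. These distances were not computed over all unshared peaks, so whether they are usual for the lists is not known. With peaks of a list joined when their edges lay within 10 kb, 21 of the 44 peaks of replicate 1 and 6 of the 15 of replicate 2 had a neighbour, as had 42.1% and 32.2% of all peaks of those lists. The groups with most peaks were the first 4 shared Wnt11 sites, joined in both replicates, and the 4 peaks at the lower edge of Wnt7b in replicate 1.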

How the data were processed

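Notch2 occupancy was measured in 2 immunoprecipitations of embryonic kidney. The submitters' processing notes name Bowtie, SAMtools, HOMER and the build mm9, with no version or role. How peaks were called, and whether against the input, is not given in the sources used here. Each file the authors deposited is the list of 1 immunoprecipitation, with 3 columns (chromosome, start and end in base pairs) and no other value. Positions are printed counted from 1. Of 28893 and 13065 rows, 242 and 480 repeated another exactly and were counted once; place means order among the remaining peaks. A longer list gives more counterparts, so shares depend on the caller's threshold and on depth, which is unknown.

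Gene positions and the 100 kb limit were taken as stated in the rule that defines the set. Members, lists and comparisons were chosen with earlier results of these data known. Named were all shared peaks, the widest and earliest peaks, and those in or nearest to a span. Autosomal tiles ran from the first peak of each chromosome and counted peak centres. Distances are between the span and the nearest edge. Overlap code was tested on simulated data against bedtools 2.31.1. No test was run, and shares have 95% Wilson intervals and ratios exact binomial intervals. Peak sequences were not printed, as no mm9 genome was used. Python 3.11.15, pandas 2.3.3 and scipy 1.17.1 were used. Alternatives covered window size, overlap criterion, list length, joining distance and motif.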

Additional observations from a re-analysis of the deposited data

How the results depend on the processing

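Windows of 50 kb held 25 peaks of replicate 1 and 29 merged regions (peaks of both lists joined where they overlap, 48 at 100 kb), and windows of 200 kb held 68 peaks of replicate 1, 24 of replicate 2 and 73 regions, as a change of length brings by construction. With both lists limited to the same number in list order, replicate 1 had 18 peaks, of which 44.4% were shared, the ratio of the replicates was 1.20 and the regions numbered 25. In the first 50% of each list, 23 and 7 peaks remained, with 23 regions, and all 7 of replicate 2 (100%) were shared. Shares of all peaks under these limits are not given here, so 44.4% and 100% have no background beside them. Over the whole list of replicate 2, shared peaks had a median place at 41.9% and unshared ones at 71.5%. With centres within 100 bp as the criterion, 13.6% of replicate 1 and 40.0% of replicate 2 peaks were shared, fewer by construction. Of the pairs that overlapped by at least 1 bp, 50% in the windows and 58.5% over the whole lists had centres within 100 bp. Leaving out each replicate gave 15 to 44 regions. Groups of 2 or more peaks, counted in each list and added, numbered 11 at 10 kb, 6 at 5 kb and 14 at 25 kb. At 10 kb, 9 were of replicate 1 and 2 of replicate 2. A place with a group in both lists was thus counted in each. The longer motif occurred in 0 of the 6 promoters. The share of replicate 1 peaks shared was 22.6 to 32.0% and that of replicate 2 was 53.3 to 79.2% under the alternatives not named with a value above. Leaving out Wnt11 was chosen after the data were seen and gave 31 and 10 peaks, a ratio of 3.10 and 35 regions. No paired analysis was possible because only the immunoprecipitations had peaks listed and no test was run. As depth is unknown, a peak listed in 1 replicate may lie below the threshold of the other.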
